A study of Mus musculus with 2 samples.

Results

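The 7 genes followed here mark pericytes, the contractile cells around capillaries: Rgs5, Kcnj8, Abcc9, Cspg4, Higd1b, Ndufa4l2 and Mcam. They were chosen by name, as 7 of the 20140 genes measured, and all 7 had values in both libraries. The submandibular and sublingual glands came from C57BL6/J females, 14 weeks old, taken 14 days after a metal clip had closed the main ducts (the ligated library) and 14 days after a mock operation that located the ducts but left them open (the mock library). Each library pooled 2 glands, from a number of mice that the labels do not give. Magnetic beads had depleted EpCAM (epithelial) and Ter119 (erythroid) cells, and dead cells had then been taken out. There was 1 library per condition, so no difference below has a replicate check or a test, and each describes these 2 libraries.

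Pericytes sit on the outer face of capillaries and, together with vascular smooth muscle cells, form the mural cells of the vessel wall. They adjust vessel tone, share a basement membrane with the endothelium and depend on endothelial PDGF-B signalling through the receptor Pdgfrb. In a salivary gland they surround the dense capillary bed that supplies water and ions to the secretory cells. Few genes are restricted to them, so they are usually recognised by a combination such as the 7 followed here. Rgs5 speeds the shut-off of G protein signalling downstream of vasoactive receptors. Kcnj8 encodes the pore and Abcc9 the regulatory subunit of the vascular ATP-sensitive potassium channel, whose opening relaxes the vessel wall. Higd1b and Ndufa4l2 encode small mitochondrial proteins, and Ndufa4l2 is a known target of hypoxia-inducible factors. Cspg4 (the NG2 proteoglycan) and Mcam (the adhesion molecule CD146) are surface proteins used to stain pericytes.

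In GENCODE M21 on GRCm38, the genome that the mm10 name in the submitters' processing notes refers to, the 7 genes are protein coding and lie at 5 separate places and 1 shared one. Rgs5 lies on chromosome 1 from 169655501 to 169695813, Cspg4 on chromosome 9 from 56865033 to 56899870, Mcam on chromosome 9 from 44134469 to 44142727, Higd1b on chromosome 11 from 102835849 to 102838040 and Ndufa4l2 on chromosome 10 from 127514967 to 127517154, all on the plus strand. The channel genes are neighbours on the minus strand of chromosome 6, Kcnj8 from 142564837 to 142571614 and Abcc9 from 142587862 to 142702315, with 16247 bases and 0 annotated genes between them. Over the last 600 bases of their coding transcripts, where tags of 3′ droplet libraries usually fall, the 7 genes shared 0 runs of 60 bases with transcripts of other genes. Whether these libraries read 3′ or 5′ ends is not given in the sources used here, and this check does not cover 5′ ends. Exons of 3 members overlap a gene on the other strand: Shmt2 at Ndufa4l2, Gm10687 at Mcam and 5330439B14Rik at Abcc9. How the counting used strand is not given in the sources used here, so reads of such partners cannot be told apart. In the mural-like cluster Shmt2 stood at only 0.297 (mock) and 0.322 (ligated) UMIs per 10000 and Gm10687 at 0.39 and 0.30, and 5330439B14Rik was not analysed here.

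The sequences upstream of 3 members are shown, Rgs5 as a widely used pericyte marker and the channel pair because its genes are neighbours that were high in the same cells. They are from RefSeq (GRCm38.p6), 5′ to 3′ on the gene's strand, and run up to the last base before the annotated transcript. RefSeq rows were found for 5 of the 7 genes and not for Higd1b and Ndufa4l2. Rgs5 is chr1:169655251-169655500 (plus strand), Kcnj8 is chr6:142571615-142571864 (minus strand) and Abcc9 is chr6:142702316-142702524 (minus strand), which leaves out 41 bases of an annotated UTR.
Rgs5: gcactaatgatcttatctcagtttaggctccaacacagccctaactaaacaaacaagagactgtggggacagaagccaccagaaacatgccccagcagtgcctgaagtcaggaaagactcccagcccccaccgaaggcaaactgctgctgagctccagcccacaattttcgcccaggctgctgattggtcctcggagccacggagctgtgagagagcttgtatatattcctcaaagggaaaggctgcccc
Kcnj8: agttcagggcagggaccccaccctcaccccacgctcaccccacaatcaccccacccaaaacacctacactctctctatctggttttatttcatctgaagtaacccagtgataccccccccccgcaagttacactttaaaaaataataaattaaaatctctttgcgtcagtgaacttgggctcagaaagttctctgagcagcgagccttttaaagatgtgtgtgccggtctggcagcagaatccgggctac
Abcc9: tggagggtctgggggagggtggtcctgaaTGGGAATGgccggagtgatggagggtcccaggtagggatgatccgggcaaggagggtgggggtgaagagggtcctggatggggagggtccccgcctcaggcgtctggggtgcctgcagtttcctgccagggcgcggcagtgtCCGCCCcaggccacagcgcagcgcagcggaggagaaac
Capitals mark matches to TGGGAA (core of the Notch effector RBPJ), CATTCC (TEAD factors), GGGCGG (GC box), TATAAA and the CArG box of serum response factor, searched on both strands of the 250 bases before each start. The Rgs5 and Kcnj8 windows held 0 matches. The Abcc9 window held 1 GC box and 1 TGGGAA that overlaps 1 CATTCC on the other strand, in the run TGGGAATG. Among all 32851 RefSeq windows of this length, 21.59% held TGGGAA, 12.64% CATTCC, 32.74% GGGCGG, 12.37% TATAAA and 1.467% a CArG box. GC content was 49.2% upstream of Kcnj8 and 53.6% upstream of Rgs5, against a median of 52.4% over all windows. For Abcc9 it was 66.8% over the full 250 bases, which include the 41 UTR bases not shown.

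Values are means over the cells of a cluster, expressed as UMIs (captured RNA molecules) of the gene in every 10000. Among the 12 clusters of all cells, cluster 6 was called mural-like. Its 10 mural markers, among them Pdgfrb, Notch3, Acta2 and Myh11, summed to 133.4 (mock) and 80.8 (ligated). These sums exceeded those of the other cell types' markers given below. All 10 were above 0 in both libraries, which alone would not name a cluster. It held 161 of 4199 mock cells (3.83%) and 420 of 11406 ligated cells (3.68%), numbers recovered from the means. A second pair of tables covered a subset that the authors named for PDGFR and Gli1, with no stated rule, whose mural-like cluster 2 held 128 mock and 274 ligated cells. Where UMI totals of single cells could be estimated in cluster 6, the median of the distinct totals was 6486 (90 totals, mock) and 4948 (205 totals, ligated). These are not counts of cells, since erythroid-like cluster 10 gave 62 totals for 60 ligated cells. The totals were not checked on simulated data, so the depth of the 2 libraries is known only roughly. Relative to the mean over the same library, the median of other cell types' markers in cluster 6 was 1.22% (mock) and 20.9% (ligated). In level, summed leukocyte markers were higher in the ligated mural-like cells and summed endothelial markers were lower. Summed natural killer markers stood at 0.0856 (mock) and 7.02 (ligated), with 5 of 9 and 9 of 9 above 0 and Ncr1, Klrb1c, Prf1 and Eomes at 0 in the mock cells. Summed T cell markers stood at 0.154 and 2.15 (3 and 9 of 10 above 0) and macrophage markers at 0.238 and 2.29 (4 and 10 of 11), and Cd68, Csf1r and Adgre1 were at 0 in the mock cells. Summed endothelial markers stood at 22.2 and 16.3, with 11 of 11 above 0 in both. With each library's mean profile, scaled to that median, subtracted and the rest not rescaled, Abcc9 and Mcam passed the size rule described next. All 7 members stood lower. This could not decide whether foreign RNA had diluted the members. The subtraction took the larger share from the ligated cells, so it moved every member's difference further down, for Rgs5 from -0.388 to -0.400. A change in the make-up of the cluster cannot be told apart from a change within its pericytes.

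All 7 members stood lower in the ligated mural-like cells than in the mock ones, in cluster 6 and again in cluster 2 of the subset, which was drawn from the same 2 libraries and so is no independent repeat. Of the genes read in cluster 6, 56.0% stood lower, and 53.2% of those in subset cluster 2. The differences ranged from small to nearly 3-fold, and only Abcc9 and Mcam passed the size rule. To pass, a gene needed 0.5 or more in 1 library and a log2((ligated + 0.1)/(mock + 0.1)) of 1 or more in size, about a 2-fold difference. In cluster 6 the rule was passed in the lower direction by 2 of 7 members and by 4.50% of the 4069 genes that reached 0.5, and in the higher direction by 0 of 7 members and 4.92% of genes. Across all genes 200 passed higher and 183 lower, and with the mean profile subtracted 87 passed higher and 379 lower (in the subset 172 and 172, then 124 and 222). Among only those genes above 0 in both libraries, 145 passed higher and 149 lower (in the subset 114 and 137). The median difference of the 7 members was -0.65 on the log2 scale, and that of the 4069 genes was -0.074. In cluster 2 of the subset 1 of 7 members passed in the lower direction, against 4.26% of 4042 genes, and the medians were -0.47 and -0.035.

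**Figure D1:**
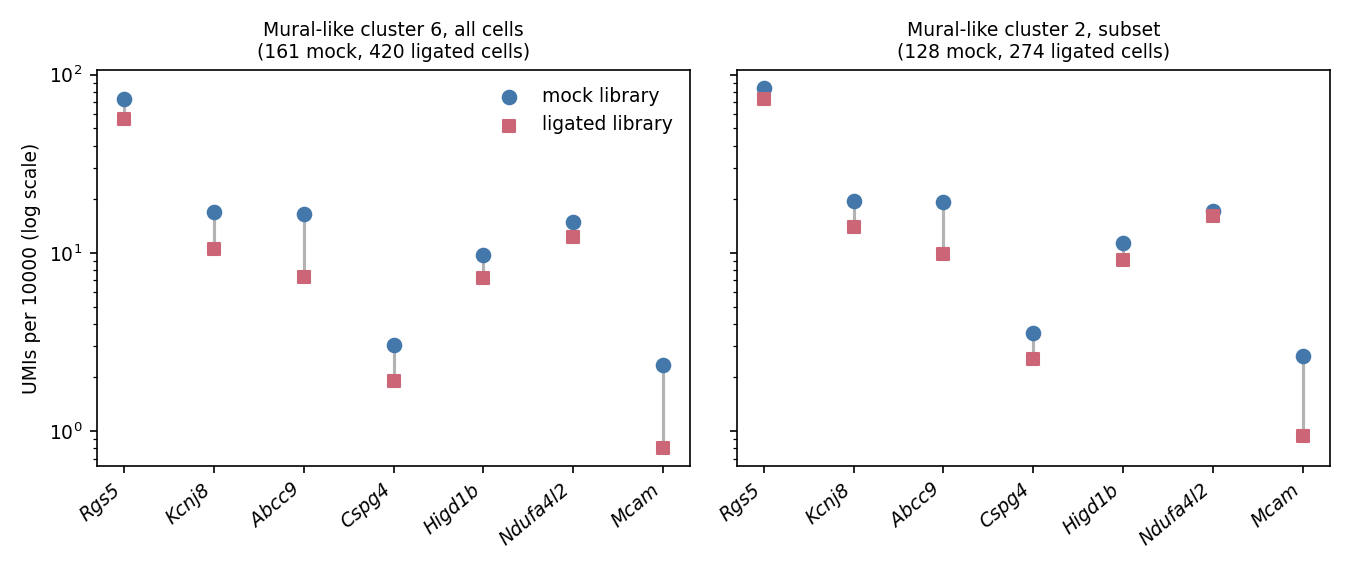
Level of each pericyte gene in the mural-like cluster of all cells (left) and of the subset (right), in UMIs per 10000 on a log axis. Circles are the mock library and squares the ligated library, 1 value each, and every square lies below its circle, with the longest lines at Abcc9 and Mcam.

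Kcnj8, the channel pore, stood at 16.9 in the mock and 10.6 in the ligated mural-like cells of cluster 6, a 1.60-fold lower level (log2 difference -0.68) that did not pass the rule. Abcc9 stood at 16.5 and 7.35, a 2.25-fold lower level (-1.16) that did. The ratio of Abcc9 to Kcnj8 was 0.975 in the mock and 0.696 in the ligated cells. The subset gave nearly the same ratios, 0.988 and 0.706. There Kcnj8 stood at 19.6 and 13.9 and Abcc9 at 19.4 and 9.85, a difference of -0.97 that narrowly missed the rule. Transcripts of the paralogous channel subunits were nearly missing from these cells. Kcnj11, the pore subunit of pancreatic beta cells, was listed at 0 in both libraries, so 0 of the 161 mock and 0 of the 420 ligated cells held a UMI of it, which by counting error allows a share of such cells of up to 1.86% and 0.714%. Abcc8, its regulatory partner, stood at 0.035 in the mock cells and was listed at 0 in the ligated cells.

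Rgs5, the G protein regulator, had levels of 73.5 and 56.1 in cluster 6, a 1.31-fold lower value in the ligated cells (-0.39). In the subset it stood at 84.0 and 73.1 (-0.20). Its paralog Rgs4 stood at 4.60 and 3.28 in cluster 6, and the ratio of Rgs5 to Rgs4 was 16.0 in the mock and 17.1 in the ligated cells. Rgs16 and Rgs2 were low in the mural-like cells of both libraries, at 0.0972 and 0.493 for Rgs16 and at 0.0485 and 0.368 for Rgs2. Rgs1, an RGS gene of leukocytes, was the paralog that passed the rule in cluster 6, higher at 1.18 in the ligated against 0.012 in the mock cells, where the leukocyte markers given above were also higher. In the subset it was Rgs16 that passed, at 0.111 and 0.685, and with a pseudocount of 1 it did not.

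Of the mitochondrial genes, Higd1b stood at 9.72 in the mock and 7.24 in the ligated cells of cluster 6 (1.34-fold lower, -0.42) and at 11.3 and 9.11 in the subset (-0.31). Ndufa4l2 stood at 15.0 and 12.3 in cluster 6 (1.22-fold lower, -0.28) and at 17.2 and 16.0 in the subset (-0.10), the smallest difference of the 7 in both tables. Cox4i2, a lung and hypoxia isoform of a cytochrome oxidase subunit that also marks pericytes, differed more and passed the rule in both tables, at 7.80 and 3.52 in cluster 6 (-1.13) and 8.91 and 4.39 in the subset (-1.01).

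The surface genes differed unequally. Cspg4 stood at 3.03 in the mock and 1.90 in the ligated cells of cluster 6 (1.59-fold lower, -0.65) and at 3.57 and 2.55 in the subset (-0.47). Mcam stood at 2.34 and 0.807, a 2.90-fold lower level and the largest difference of the 7 (-1.43), and at 2.63 and 0.932 in the subset (-1.40). Only 2.06% of the 4069 genes of cluster 6 had a difference as low as that of Mcam, and 3.07% one as low as that of Abcc9, while 33.1% were as low as Ndufa4l2. With a pseudocount of 1 in place of 0.1 the difference of Mcam was -0.89 and no longer passed the rule.

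**Figure D2:**
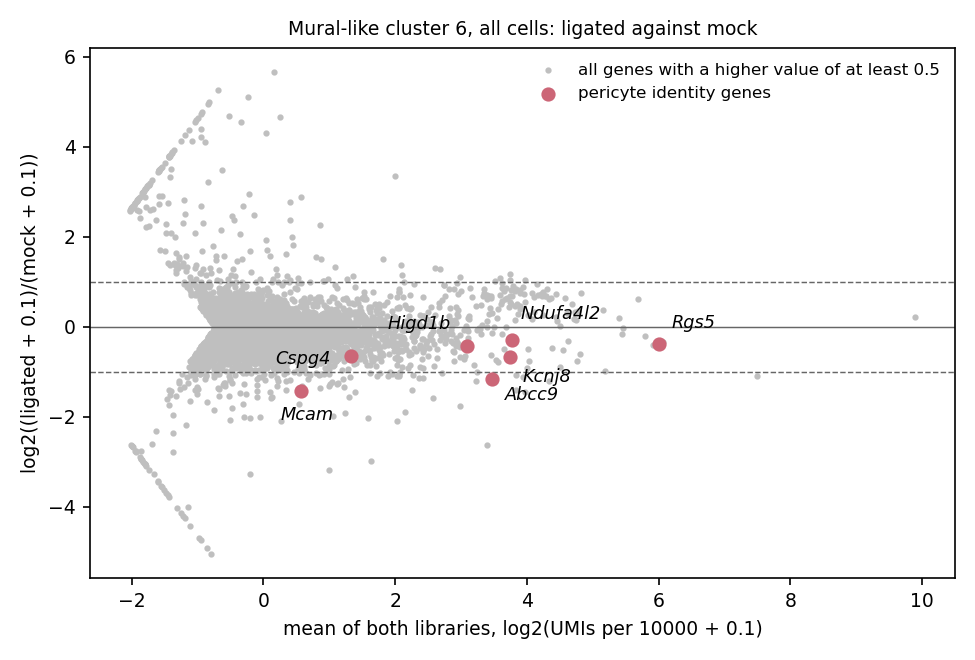
Difference between the libraries in mural-like cluster 6, log2((ligated + 0.1)/(mock + 0.1)), against the mean level of both libraries on the log2(UMIs per 10000 + 0.1) scale. Grey points are the 4069 genes that reached 0.5 in a library, red points the 7 pericyte genes, dashed lines the size of 1, and all red points lie below 0 with Abcc9 and Mcam below the lower dashed line.

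Across the 12 clusters, 6 of the 7 members were highest in the mural-like cluster in both libraries, and Mcam was not. Rgs5 stood 188-fold above its next cluster in the mock library (0.391 in unnamed cluster 8) and 28.9-fold in the ligated library (1.94 in the same cluster). The lead of Higd1b was 122-fold and 37.9-fold. Kcnj8 led by 54.9-fold and 41.1-fold, Abcc9 by 21.1-fold and 17.8-fold, and Ndufa4l2 by 11.4-fold and 4.86-fold. Cspg4 led by only 1.76-fold and 1.82-fold, over Schwann-like cluster 9. Of the summed level of a gene over all cells, the mural-like cluster held 97.1% of Higd1b and 94.4% of Rgs5 in the mock library and 91.2% and 89.5% in the ligated library. It held 80.8% and 39.0% of Cspg4 and 87.2% and 58.4% of Ndufa4l2. These shares also depend on cell numbers, since fibroblast-like cells made up 4.48% of the mock and 10.07% of the ligated library.

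**Figure D3:**
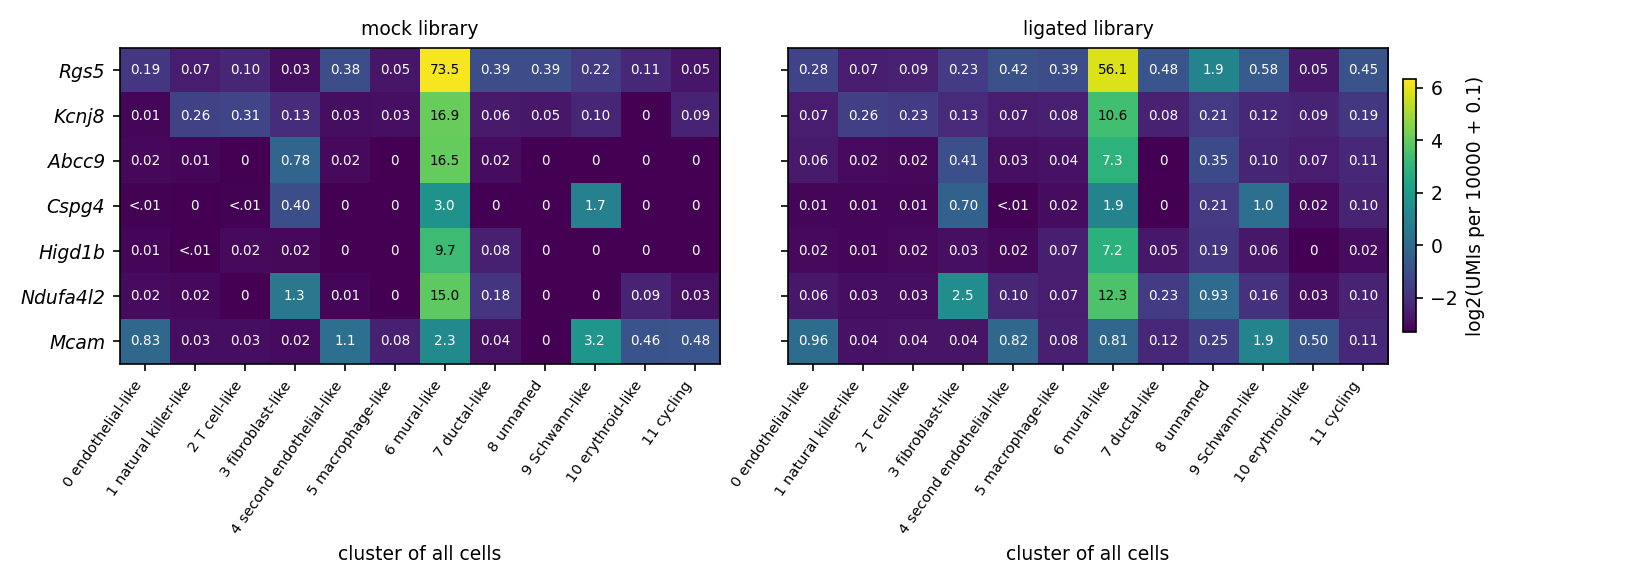
Level of the 7 pericyte genes in the 12 clusters of all cells, mock library on the left and ligated library on the right. Numbers are UMIs per 10000 and colours log2(UMIs per 10000 + 0.1), and the bright column is mural-like cluster 6, with Ndufa4l2 also in fibroblast-like cluster 3 and Mcam in the endothelial-like and Schwann-like clusters.

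Fibroblast-like cluster 3, with 188 mock and 1149 ligated cells, held 3 members at 0.4 or more. Ndufa4l2 stood at 1.31 in its mock and 2.53 in its ligated cells, a difference of 0.89 in the direction opposite to that of the mural-like cells. Cspg4 likewise stood at 0.402 and 0.701 (0.68). Abcc9 stood at 0.781 and 0.412 (-0.78), lower in the ligated cells as in the mural-like cluster. In fibroblast-like cluster 0 of the subset Ndufa4l2 stood at 1.26 and 2.70, and its difference of 1.04 passed the rule in the higher direction, as did 4.75% of 3749 genes there. With a pseudocount of 1 it was 0.71 and did not pass. Rgs5 stood at 0.0295 and 0.226 and Higd1b at 0.0161 and 0.0323 in cluster 3. These were 0.99% and 9.79% of the library mean for Rgs5 and 4.19% and 11.05% for Higd1b, near the median of other cell types' markers in that cluster (3.33% and 10.5%). Ndufa4l2 stood at 199.7% and 326.8% of its library mean, and Cspg4 at 279.2% and 390.8%. Whether the opposite directions in fibroblast-like and mural-like cells differ beyond the spread between animals could not be tested.

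Kcnj8 was the member present in lymphocytes. It stood at 0.26 in the mock and 0.257 in the ligated cells of natural killer-like cluster 1, and at 0.309 and 0.231 in T cell-like cluster 2. In cluster 1 this was 36.1% and 47.3% of its library mean, where Rgs5 stood at 2.23% and 2.95% and Higd1b at 0.43% and 4.39% of theirs. In cluster 2 Kcnj8 was at 42.8% and 42.6%, and Rgs5 at 3.49% and 3.74%. The median for markers of other cell types was 2.18% and 7.37% in cluster 1 and 3.07% and 8.95% in cluster 2. Its partner Abcc9 was not raised in these cells, with 0.0127 (mock) and 0.0225 (ligated) in cluster 1, then 0 and 0.0168 in cluster 2, where 0 of 155 mock cells with a UMI allows a share of up to 1.94%.

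Mcam was shared with the endothelium and with Schwann-like cells. In endothelial-like cluster 0, with 2363 mock and 2948 ligated cells, it stood at 0.835 and 0.957 (0.18), and in the second endothelial-like cluster, with 226 and 531 cells, at 1.06 and 0.821 (-0.34). Neither passed the rule. In Schwann-like cluster 9 it stood at 3.16 in 17 mock cells and 1.94 in 271 ligated cells, the highest of the 12 clusters in both libraries, and mural-like cells ranked 2 in the mock and 4 in the ligated library. The mural-like cluster held 13.8% and 7.45% of its summed level. Cspg4 also stood at 1.73 and 1.05 in Schwann-like cells, whose 17 mock cells were too few for a comparison. Among the other clusters of all cells with at least 50 cells in each library, few members reached the 0.5 that the rule needs. These were Mcam in clusters 0 and 4, and Abcc9, Cspg4 and Ndufa4l2 in cluster 3. None of these passed it, where the share of all genes past it in either direction was 6.60% in cluster 0, 6.10% in cluster 4 and 9.78% in cluster 3. In the natural killer-like, T cell-like, macrophage-like, ductal-like and erythroid-like clusters 0 members reached 0.5, so the rule could not be applied to them there. Rgs5 also reached 0.5 in unnamed cluster 8 (0.391 and 1.94) and in Schwann-like cluster 9 (0.218 and 0.583). Ndufa4l2 did so in cluster 8 (0 and 0.934). Cluster 8 held 25 mock cells and cluster 9 held 17, so neither was compared.

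In endothelial-like cluster 3 of the subset, with 82 mock and 260 ligated cells, pericyte genes were present at lower levels. Rgs5 stood at 10.2 and 5.77 (-0.81), Abcc9 at 1.71 and 0.829 (-0.97) and Higd1b at 0.824 and 0.505 (-0.61). Mcam stood there at 0.651 and 0.748 (0.17) and Ndufa4l2 at 0.988 and 1.28 (0.34), so 4 of the 6 members measured at 0.5 or more stood lower in the ligated cells and 0 passed the rule, against 10.5% of all genes there. In all cells, by contrast, Rgs5 stood at 0.185 and 0.284 in endothelial-like cluster 0. The subset was named for PDGFR and Gli1, and Pdgfrb is a mural marker, so its endothelial-like cells may not stand for all such cells. Of the summed Rgs5 level over all cells, cluster 6 held 94.4% (mock) and 89.5% (ligated). The subset held 92.55% and 88.0%, and its cluster 2 held 85.8% and 76.1%. The other subset clusters thus held more Rgs5 than all cells outside cluster 6, so some cells of cluster 6 lay in them. This takes all subset cells to be among all cells. Subset cluster 3 and cluster 0 therefore need not hold the same cells. What part the choice of cells or mixed droplets had in the contrast between them was not tested.

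Ndufa4l2 was highest and its paralog Ndufa4 lowest in the mural-like cluster, while Higd1a, the paralog of Higd1b, was not low there. Values of different genes were not divided by length, so the ratio of a pair is compared only between clusters. Ndufa4, a cytochrome oxidase subunit found in most cells, was at its lowest in the mural-like cluster, at 1.62 in the mock and 1.78 in the ligated library, and stood between 2.68 and 24.7 in the other ligated clusters and between 2.86 and 25.1 in the other mock clusters. In mural-like cluster 2 of the subset it was lower still, at 0.601 and 0.436. The ratio of Ndufa4l2 to Ndufa4 was 9.21 in mock and 6.89 in ligated mural-like cells and 28.7 and 36.7 in those of the subset. In the fibroblast-like cluster the ratio was 0.382 in the mock and 0.928 in the ligated cells, and in the other 10 clusters it did not exceed 0.033 in the mock or 0.239 in the ligated library. Higd1a stood at 1.13 and 0.927 in mural-like cells and ranked sixth and eighth from the lowest of 12. The ratio of Higd1b to Higd1a was 8.64 and 7.82 there and at most 0.0153 and 0.330 in the 10 clusters other than the mural-like and fibroblast-like ones.

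**Figure D4:**
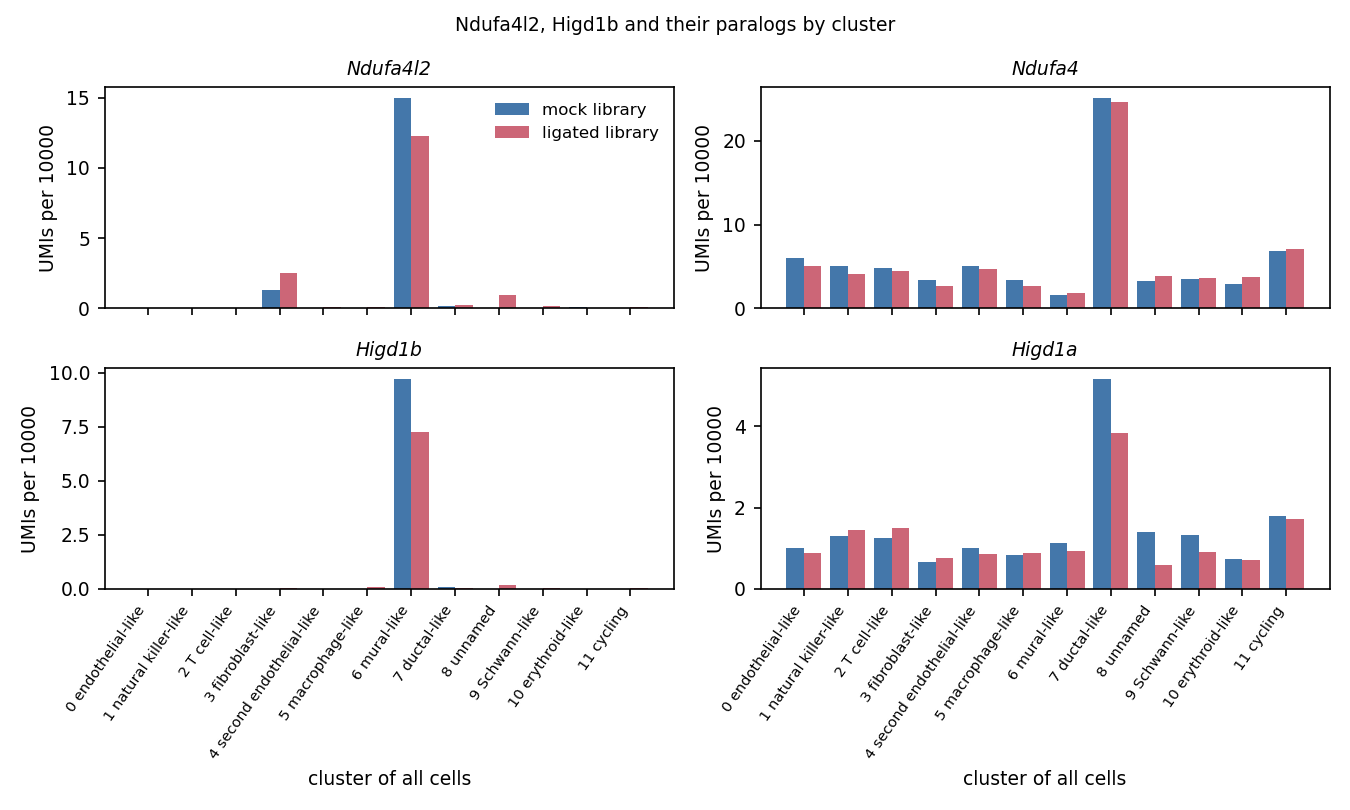
Levels of Ndufa4l2 and Higd1b (left) and of their paralogs Ndufa4 and Higd1a (right) in the 12 clusters of all cells, in UMIs per 10000, with blue bars for the mock and red bars for the ligated library. Ndufa4l2 and Higd1b peak in mural-like cluster 6, where Ndufa4 has its lowest bars, and both paralogs peak in ductal-like cluster 7.

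Other genes of mural cells did not all move with the 7 members. Of 25 further pericyte and mural genes 24 had a row and 20 reached 0.5 in cluster 6, of which 3 passed the rule in the lower direction (Cox4i2, Art3 and Col18a1) and 1 in the higher direction (Mgp), and their median difference was -0.27. Pdgfrb, the receptor that recruits pericytes, stood at 12.7 in the mock and 12.6 in the ligated cells. The subunits of the nitric oxide receptor were close as well, Gucy1a1 at 9.84 and 9.53 and Gucy1b1 at 7.14 and 6.33, and so was the matrix protein Vtn at 4.21 and 4.44. Notch3, the Notch receptor of mural cells, stood at 9.87 and 6.19 (-0.66). Mgp, an inhibitor of calcification, stood at 9.26 and 19.3 (1.05) and, in the subset, at 11.2 and 25.2 (1.16). Atp13a5 and Slc6a20a, known from brain pericytes, were listed at 0 in both libraries. In the subset the median of the 20 genes was -0.024, with 2 lower and 1 higher past the rule.

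Contractile genes of smooth muscle stood lower in 15 of 15 measured cases in cluster 6, with a median of -0.75, and 4 of them passed the rule in the lower direction and 0 in the higher. Those 4 were Myh11, the smooth muscle myosin heavy chain, at 14.4 and 4.20 (-1.76), Tpm2 at 25.8 and 9.34 (-1.45), Tagln at 30.7 and 13.3 (-1.20) and Synpo2 at 1.51 and 0.685 (-1.03). Acta2, smooth muscle actin, stood at 35.4 and 20.8 (-0.77) in cluster 6, and its subset levels of 28.6 and 12.8 passed (-1.15). In the subset 6 of 14 passed in the lower direction, with a median of -0.89. 

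Among receptors of vessel wall cells whose G proteins Rgs5 can act on, 3 of 7 measured in cluster 6 passed the rule in the lower direction and 0 in the higher. Ednrb, an endothelin receptor, stood at 23.0 in the mock and 8.65 in the ligated cells (-1.40), S1pr3 at 1.30 and 0.394 (-1.50) and Agtr1a, an angiotensin receptor, at 2.37 and 1.11 (-1.03). The others did not pass: Ednra, the second endothelin receptor, stood at 2.50 and 2.65 (0.077), Pth1r at 0.878 and 0.727 (-0.24), P2ry14 at 0.704 and 1.30 (0.80) and Avpr1a, a vasopressin receptor, at 0.421 and 0.638 (0.50). The median of the 7 was -0.24 in cluster 6 and 0.26 in the subset, so its sign differed between the tables. In the subset Ednrb and S1pr3 passed and Agtr1a did not (-0.88), 3 of 7 stood lower, and P2ry14 stood at 0.859 and 1.76 (0.96). Among the binding partners of Cspg4 and Mcam, Itgb1, an integrin chain, was past the rule in the lower direction, at 14.2 and 6.11 (-1.20), and Lgals3 in the higher, at 0.328 and 0.787 (1.05). Lama4, the laminin chain to which CD146 binds, stood at 0.942 and 0.615 (-0.54).

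Hypoxia genes were examined because Ndufa4l2 belongs to them. Of 18 genes, 8 reached 0.5 in cluster 6, and 0 passed the rule in either direction (median -0.32). Epas1, the HIF subunit common in vessels, stood at 8.05 and 4.34 (-0.88), Hif1a at 1.20 and 1.31 (0.12) and Ldha at 2.04 and 2.22 (0.12). Immediate early genes, which respond within minutes to stimuli that include tissue handling, went the other way. Of 11 immediate early genes 4 (Fosb, Jun, Junb and Btg2) passed in the higher direction and 0 in the lower (median 0.79), with Jun at 3.01 in the mock and 6.13 in the ligated cells. The 10 mitochondrially encoded genes summed to 285.1 and 313.9, and 0 passed the rule. What part handling had in the lower levels of the pericyte genes was not tested.

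**Figure D5:**
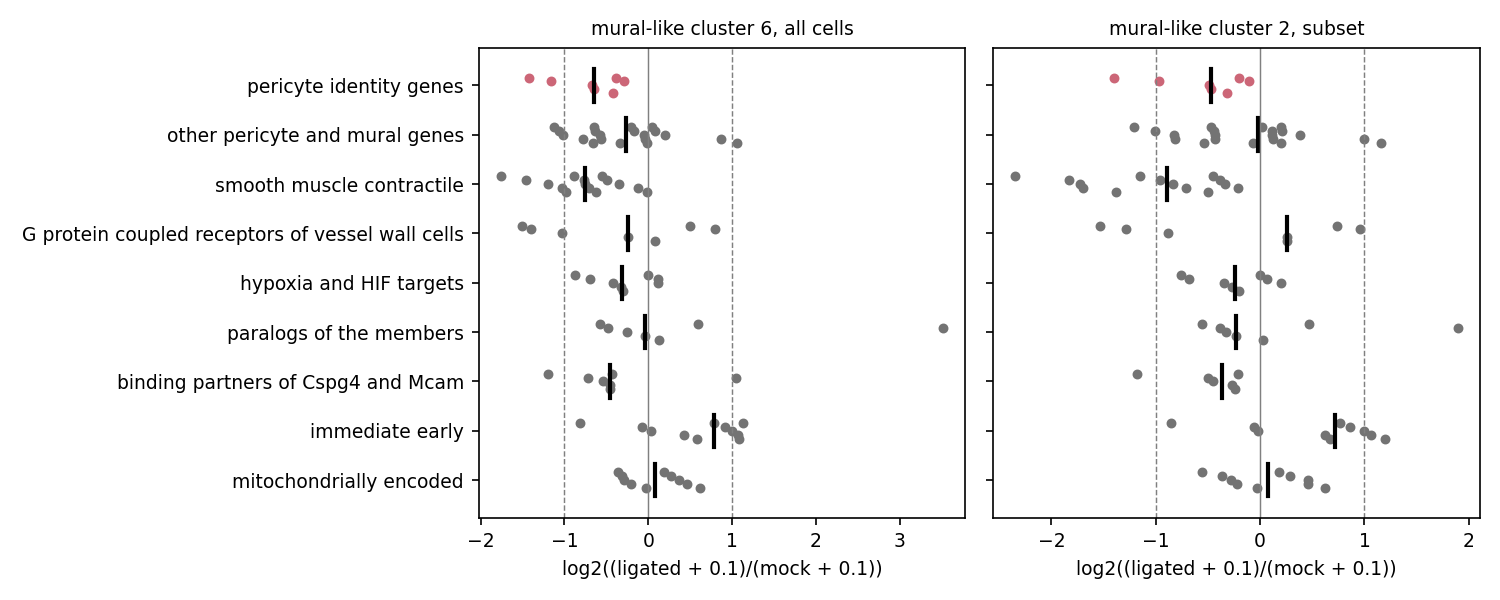
Differences log2((ligated + 0.1)/(mock + 0.1)) of genes that reached 0.5 in mural-like cluster 6 of all cells (left) and mural-like cluster 2 of the subset (right), 1 point per gene and 1 row per gene list, with a black bar at the list's median and dashed lines at the size of 1. The 7 pericyte genes lie left of 0 in both panels, as do all contractile genes, while most immediate early genes lie to the right.

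Mural-like cells outside cluster 2 of the subset held less of each member than that cluster. Taking all cells of subset cluster 2 to lie in cluster 6, which the files do not state, subtraction of the summed levels left 33 mock and 146 ligated cells, an approximation because 0.891% of genes in the ligated library had a larger sum in the subset cluster than in cluster 6 (0 genes in the mock library). In the remaining cells Rgs5 stood at 32.6 in the mock and 24.2 in the ligated library, against 84.0 and 73.1 in the subset cluster. Abcc9 stood at 5.49 and 2.65, and Mcam at 1.21 and 0.571. Higd1b, at 3.40 and 3.73, was the member that did not stand lower in the ligated library among these cells. Acta2 was higher in the remaining cells, at 62.0 and 35.7, than in subset cluster 2, and Pdgfrb stood at 3.14 and 3.60. The remaining cells may include cells of other subset clusters.

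The members resembled one another to different degrees over the 24 columns (12 clusters in each of 2 libraries) on the log2(value + 0.1) scale. Pearson's r was 0.96 between Rgs5 and Higd1b, 0.95 between Abcc9 and Ndufa4l2 and 0.89 between Abcc9 and Kcnj8, and between 0.19 and 0.51 for Mcam with the other members. These r describe clusters that share libraries and are not independent. By the same measure the 10 genes most like the mean profile of the 7 members, among 7766 genes, were Carmn, Gucy1a1, Pde5a, Des, Gucy1a2, Myl9, Ajuba, Rdh5, Npy1r and Tbx3os1, with r from 0.97 to 0.96. Carmn, a long noncoding RNA of smooth muscle, stood at 2.93 and 4.12 in the mock and ligated cells of cluster 6, while Pde5a, which degrades cyclic GMP, stood at 3.89 and 2.42. The genes most like single members were Notch3, Rgs4 and Cnn1 for Rgs5, Trpc6, Colec11 and Cnn1 for Kcnj8, and Vtn, Kcne4 and Pde3a for Abcc9. They were Angptl2, Rarres2 and Atp1b2 for Cspg4, Cnn1, Ano1 and H2-M9 for Higd1b, and Mrvi1, Mark1 and Ednra for Ndufa4l2. Pcdh1 was the gene most like Mcam. The ranking depended on the measure: Spearman's rho shared 0 of the 10 genes, and Pearson's r over the 12 joint columns shared 6.

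Over all genes of cluster 6 that were above 0 in both libraries, the largest differences past the rule lay elsewhere. Ccl5, Gzmc, Atp6v0c, Nme2 and Tyrobp were highest in the ligated cells relative to the mock ones (4.55 to 5.67), among them transcripts of leukocytes. Pf4, Ogn, Ppbp, Hbb-bs and Wfdc18 were the lowest (-4.01 to -2.98), among them transcripts of platelets and red blood cells. These differences were not particular to the mural-like cells. The mean over the whole ligated library was also higher for each gene of the first group. For Nme2 it was 0.166 (mock) and 5.87 (ligated), and for Atp6v0c 0.0354 and 2.81. In the second group the library means were also lower in the ligated library, except for Ogn (0.431 and 0.870). The differences of the 7 members in cluster 6 ran from -1.43 to -0.28. The genes named here were picked as the most extreme, so they do not show where the members lie among all genes.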

How the data were processed

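Droplet libraries (10X Genomics, per the labels) of 1 ligated and 1 mock sample were analysed. The submitters' processing notes name Cell Ranger 6.0.1, Seurat and mm10, and the filters on cells, the clustering and the handling of doublets are not given in the sources used here. Doublets were not removed here. The authors deposited 4 tables of cluster means in UMIs per 10000 (unit other: every column sums to 10000 and no value is below 0), 2 with both libraries together and 2 split by condition. Gene names that a spreadsheet had turned into dates (21 per split table) were put back by row position against the joint table, and 0 value columns lacked a sample. The number of cells per cluster follows from the weight that turns the split means into the joint mean (largest residual 9.2e-08, tolerance of the weight 2e-09), with the multiple set by genes that give whole UMI totals within 1e-06. This step was tested on simulated data. Shares that a value of 0 allows are 3 counts of the cells and cover counting error only.

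The size rule, log2((ligated + 0.1)/(mock + 0.1)) of at least 1 in size with a higher value of at least 0.5, was read where both libraries had at least 50 cells: 9 clusters of all cells and 3 of the subset. No count model or interval on a level could be had from means. Other markers' levels are the median of value over library mean, over markers of all foreign cell types with a library mean of at least 0.1. The text names the members, genes of the lists, the 10 genes most like the members and 3 most like each (genes with a value of at least 0.5 and above 0 in both libraries), and the 5 largest differences in each direction. Of the genes most like Mcam only the first is given, since an item among the others is not reported here. The members and lists were chosen with earlier results of these data known. Which list genes the text names, and the 3 sequences shown, were chosen after their values were seen. Alternatives were other pseudocounts, minima and sizes, centring, the subset and other measures of likeness. Others left out mitochondrially encoded genes or genes of 1 library. Another subtracted the library's mean profile times that median share (values below 0 set to 0, the rest not rescaled). Python 3.11.15, numpy 2.4.6, pandas 2.3.3 and matplotlib 3.10.9 were used.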

Additional observations from a re-analysis of the deposited data

Results flagged for a closer look

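Among members that reached 0.5 in another compared cluster of all cells, 3 stood higher in its ligated cells and lower in the ligated mural-like cells. These differences between clusters were not tested, because each condition had 1 library. Members below 0.5 were not read for this. Ndufa4l2 differed by 0.89 in fibroblast-like cluster 3 and by -0.28 in mural-like cluster 6 on the log2 scale. Cspg4 differed by 0.68 in cluster 3 and by -0.65 in cluster 6. Mcam differed by 0.18 in endothelial-like cluster 0 and by -1.43 in cluster 6. In the second endothelial-like cluster it stood lower in the ligated cells (-0.34), so the 2 endothelial-like clusters went different ways.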

How the results depend on the processing

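No paired analysis was possible because each condition had 1 library. Of the 10 alternatives, 5 can change a member's difference (both pseudocounts, centring, subtraction of the mean profile and leaving out mitochondrially encoded genes), and under these each of the 7 pericyte genes stood lower in the ligated mural-like cells, in cluster 6 and in subset cluster 2. Subtraction of the mean profile, without rescaling, moved each member further down, so it is no check on dilution by foreign RNA. The other 5 alternatives change only which genes are read or the size needed. In all, 6 of 7 were highest in the mural-like cluster under both alternatives in each library. The number of members past the size rule in cluster 6 was 2, and it went to 1 with a pseudocount of 1 (Abcc9), to 4 at a size of 1.5-fold (Kcnj8, Abcc9, Cspg4 and Mcam) and to 0 at a size of 2. In subset cluster 2 it was 1, and it went to 0 with a pseudocount of 1, to 2 at 1.5-fold (Abcc9 and Mcam) and to 0 at a size of 2. With a pseudocount of 1, genes past the rule in cluster 6 numbered 0 for other mural genes (4 in the main analysis), 1 for G protein coupled receptors (3), 1 for binding partners (2) and 0 for immediate early genes (4). In subset cluster 2, also with a pseudocount of 1, they numbered 1 for binding partners (1 in the main analysis) and 0 for immediate early genes (2). There they also numbered 0 for paralogs (1), 1 for G protein coupled receptors (2), 1 for other mural genes (3) and 4 for contractile genes (6). Of the 10 genes most like the members, Spearman's rho kept 0 and the joint columns kept 6, and in both cases the cause was not tested. Over those 5 alternatives Mcam ranged from -1.56 to -0.89 and Ndufa4l2 from -0.30 to -0.21 in cluster 6. All genes past the rule there numbered 383, and 106 with a pseudocount of 1, 976 with no minimum, 109 with a minimum of 2, 1043 at 1.5-fold and 167 at a size of 2. In subset cluster 2 they numbered 344, then 87, 883, 83, 904 and 152. For Ndufa4l2 in the fibroblast-like subset cluster the alternatives were chosen after seeing the data, and 4 of 5 kept it past the rule. The main limits are 1 library per condition, 161 mock cells in cluster 6 and levels known only as means.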
